A study of Mus musculus with 9 samples.

Results

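Glucagon (Gcg) and 7 genes enriched in pancreatic alpha cells (Irx1, Irx2, Pou3f4, Gc, Loxl4, Dpp4 and Sv2b) were followed in islets of control mice and of mice labelled as knockouts of the transcription factor gene Glis3. The genes were taken from the count table by symbol, and all 8 of 8 were among its 25611 rows. Of these, 7 passed the filter on low counts and Loxl4 did not. RNA was sequenced from islets of 4-week-old mice. The 4 control mice carried the conditional Glis3 allele alone (Glis3fl/fl), and the 3 mice labelled knockout carried the same allele with the Pdx1-Cre driver (Pdx1-Cre;Glis3fl/fl). Both groups were thus homozygous for the conditional allele. No group carried the driver alone, so driver and deletion cannot be told apart. Binding of Glis3 was mapped in 1 sample without replicate, with an antibody against GFP in islets of Glis3-eGFP mice aged 8 weeks, which gave 21254 peaks.

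Alpha cells secrete glucagon, the hormone that raises blood glucose by acting on the liver. They cut it from proglucagon with the convertase encoded by Pcsk2, whereas the convertase encoded by Pcsk1 yields GLP-1 from the same precursor in gut L cells. Alpha cells are the second endocrine type of the mouse islet after beta cells, and both arise from progenitors that express Pdx1, so the driver is active in the lineage of either cell type. In whole islets, fewer cells of a type and less RNA per cell cannot be told apart.

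Summed markers of alpha and beta cells were present at high levels. Summed over 9 alpha cell markers, most of them genes of this set, the level was 37289 to 75867 CPM (counts normalised to library size with TMM factors) in controls, against 46219.8 to 49844 CPM for the libraries labelled knockout. Most of this sum was Gcg itself, at 35660 to 73316 CPM in controls and 39971 to 44046 CPM in labelled knockouts. The sum therefore says little about alpha cells beyond that gene. Summed beta cell markers ranged from 308823 to 522180 CPM for controls and from 101949 to 200759 CPM for labelled knockouts. Summed acinar markers ranged from 674 to 4452 and from 2012 to 11819 CPM. The level of Glis3 itself did not fall, with a range of 31.2 to 46.8 CPM for controls and of 52.0 to 57.8 CPM for labelled knockouts (log2 0.52 ± 0.14 SE, adjusted p = 0.0257 by edgeR). Whole-gene counts do not separate the deleted exons from the rest, so the group is called labelled knockout throughout.

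Among the 7 tested alpha cell genes 3 rose, 2 fell and 2 did not pass the test (edgeR quasi-likelihood test, adjusted p under 0.05). Over all tested genes 8.73% were called higher and 5.25% lower. These shares were 12.8% and 2.23% with library size alone, 6.97% and 4.65% with no filter on low counts, 9.53% and 5.53% with a replicate block, 9.23% and 5.47% with limma-voom, and 10.8% and 7.5% with DESeq2. Leaving out 1 library at a time gave shares of 6.5 to 7.93% higher and 3.77 to 5.54% lower. The median log2 fold change, labelled knockout over control, was −0.32 over the 7 genes and 0.0065 over all 14529 tested genes. Transcription factor genes and the hormone gene had negative values, and the genes for a carrier protein, a peptidase and a vesicle protein had positive ones. The call of Gc held under each of the 15 alternatives, while those of Irx1, Irx2 and Dpp4 were close to the threshold.

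Gcg lies on chromosome 2 (62474530 to 62483653, minus strand, mm10) and stood among the 10 most abundant genes of these islets. Its share of all counts was 4.67, 3.82, 4.74 and 5.95% for controls 1 to 4, and 4.45, 4.51 and 4.41% for labelled knockouts 1 to 3. After normalisation the levels were 45130, 35660, 52824 and 73316 CPM in controls, against 39971, 40711 and 44046 CPM in labelled knockouts. All 3 labelled knockout values lay inside the range of the controls, whose spread was wider. The log2 fold change was −0.32 (SE 0.20, edgeR adjusted p = 0.343), which did not pass the test. It stayed negative under each of the 15 alternatives, from −0.46 to −0.08.

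The promoter of Gcg is shown because the hormone gene defines the cell type. The window runs from 250 bases before to 50 bases after the RefSeq start (chr2:62483604-62483903, minus strand, GRCm38.p6), and capitals mark TATAAA on either strand.
Gcg: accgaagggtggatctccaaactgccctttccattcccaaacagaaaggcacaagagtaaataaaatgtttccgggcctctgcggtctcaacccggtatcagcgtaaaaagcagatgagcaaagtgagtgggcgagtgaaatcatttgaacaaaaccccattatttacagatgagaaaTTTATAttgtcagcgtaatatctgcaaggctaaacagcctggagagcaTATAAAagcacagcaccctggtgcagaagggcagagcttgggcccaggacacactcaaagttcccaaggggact
The copy on the printed strand began 24 bases before the transcription start. TATAAA on either strand was present in 13.6% of all 32851 RefSeq promoter windows of that length. No Glis3 peak lay in this window.

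**Figure D1:**
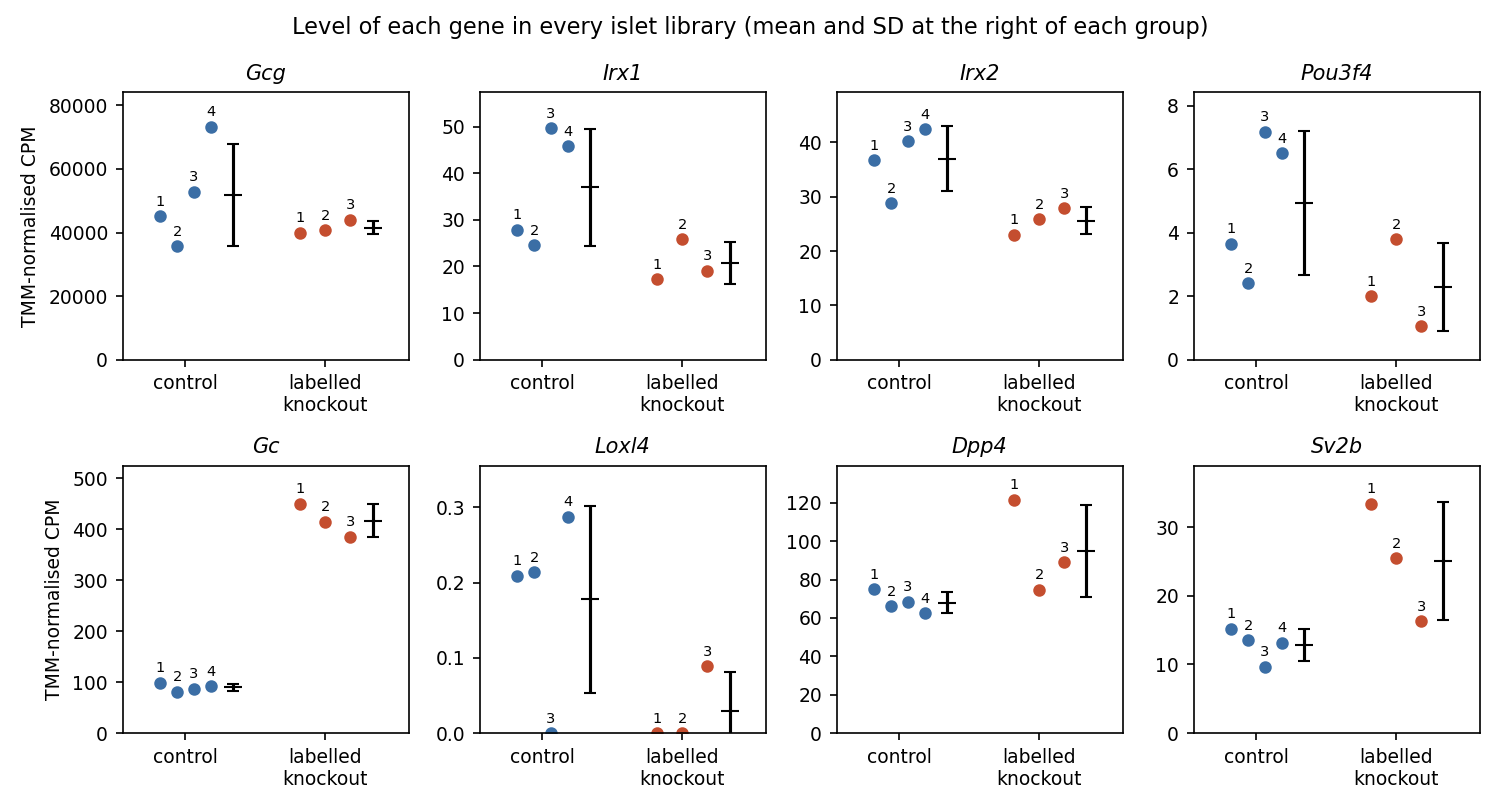
Level of the 8 genes in each islet library, in TMM-normalised CPM on linear axes that start at 0. Points are libraries marked with their replicate number, and the bar beside each group is the mean ± SD (4 controls, 3 labelled knockouts), with bars ended at 0. Gc is separated between the groups, from 81.6 to 98.9 CPM in controls and from 386 to 450 CPM in labelled knockouts, whereas Gcg overlaps.

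The transcription factor genes of the set were Irx1 and Irx2, Iroquois homeobox genes that lie in 1 cluster, and Pou3f4 (Brn4), a POU domain gene whose product binds the glucagon promoter. Irx1 (chromosome 13, 71958232 to 71963723, minus strand) stood at 27.9, 24.6, 49.6 and 45.8 CPM in controls 1 to 4, against 17.3, 25.9 and 19.1 CPM in labelled knockouts 1 to 3. Controls 3 and 4 were high, and labelled knockout 2 lay above control 2, so the groups overlapped. The log2 fold change of Irx1 was −0.82 (SE 0.25, edgeR adjusted p = 0.0462), or 1.77-fold lower. This call was lost with library size alone (edgeR adjusted p = 0.0629), with no filter on low counts (edgeR adjusted p = 0.0567), with limma-voom (adjusted p = 0.119) and without control 3 or 4 or any 1 labelled knockout, in an overall range of adjusted p from 0.00825 to 0.167.

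Irx2 (chromosome 13, 72628797 to 72634196, plus strand) was at 36.7, 28.8, 40.2 and 42.4 CPM in controls, against 23.0, 25.9 and 27.9 CPM in labelled knockouts. The groups did not overlap, a pattern that 26.6% of all tested genes shared (14.0% with labelled knockouts higher and 12.6% lower), though control 2 was within 1 CPM of labelled knockout 3. Irx2 fell by 0.53 on the log2 scale (SE 0.15, edgeR adjusted p = 0.0329), and its call was lost with library size alone, without control 1, 3 or 4 or labelled knockout 1 or 2 and with limma-voom (adjusted p from 0.0132 to 0.198 over all alternatives). With a block for the replicate number neither Iroquois gene passed (edgeR adjusted p = 0.081 for Irx1 and 0.074 for Irx2).

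The Irx2 promoter is printed because it holds the edge of a Glis3 peak. The window covers chr13:72628570-72628869 on the plus strand (RefSeq, GRCm38.p6), and the 20 bases in capitals are those shared with the 200 bp peak at chr13:72628390-72628589.
Irx2: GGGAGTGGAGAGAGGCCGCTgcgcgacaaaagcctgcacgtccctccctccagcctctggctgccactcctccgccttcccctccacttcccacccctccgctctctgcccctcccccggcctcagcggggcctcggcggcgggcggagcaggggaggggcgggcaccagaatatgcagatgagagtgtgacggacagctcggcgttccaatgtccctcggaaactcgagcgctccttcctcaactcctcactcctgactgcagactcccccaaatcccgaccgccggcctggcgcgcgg
The midpoint of this peak lay 308 bp upstream of the Irx2 start in the count table, which differs from the RefSeq start of the window. It lay 75 bp inside the divergent gene Gm20554, which is transcribed from the opposite strand. Gm20554 stood at 10.2, 8.62, 11.7 and 15.1 CPM in controls, against 2.9, 10.2 and 9.17 CPM in labelled knockouts (log2 −0.60 ± 0.35 SE, adjusted p = 0.284 by edgeR), and the groups overlapped. The RefSeq span of Irx2 is longer than that of the count table and begins at 72624430, so the peak lies inside it. That span overlaps Gm20554, and with the counting strand not given, reads of the shared stretch cannot be assigned. The window had 69.0% G and C bases and no match to TATAAA.

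Pou3f4 (chromosome X, 110814379 to 110819108, plus strand) was a low gene. It had 3.66, 2.41, 7.18 and 6.51 CPM in controls, against 2.0, 3.8 and 1.06 CPM in labelled knockouts, from 24 to 136 counts per library. As with Irx1, controls 3 and 4 were high and labelled knockout 2 overlapped the controls. The log2 fold change was −1.09 (SE 0.48, edgeR adjusted p = 0.159). Of the alternatives, only leaving out labelled knockout 2 took it past the threshold (log2 −1.70, adjusted p = 0.0492 by edgeR).

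Gc, the vitamin D binding protein, a carrier of the albumin family that the liver releases into plasma and that mouse alpha cells also make, showed the largest difference of the 7 tested genes. Gc (chromosome 5, 89417511 to 89457898, minus strand) stood at 98.9, 81.6, 86.9 and 92.4 CPM in controls, against 450, 415 and 386 CPM in labelled knockouts. Every labelled knockout was over 3 times the highest control, and the spread within groups was small. The rise was 4.63-fold (log2 2.21 ± 0.12 SE, adjusted p = 1.36e-07 by edgeR), and it ran from 2.15 to 2.39 on the log2 scale over the alternatives. Liver markers were near 0: 4 markers in the table summed to 0.974 to 3.83 CPM in controls, against 5.5 to 11.3 CPM in labelled knockouts, with no overlap. Of these, Apoa1, an apolipoprotein gene, rose from 0.375 ± 0.275 to 4.55 ± 1.51 CPM without overlap (log2 3.52 ± 0.64 SE, adjusted p = 0.00202 by edgeR), and was the 1 called liver marker. With 0 to 21 counts in controls, Apoa1 passed the filter on low counts only through the labelled knockouts. Alb stood at 1.54 ± 0.981 CPM (SD, n = 4) and 3.44 ± 1.23 CPM (SD, n = 3), and log2 1.17 (SE 0.53; adjusted p = 0.167 by edgeR) did not pass. The part of liver-type transcripts in the Gc value was not tested.

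The Gc promoter is given because the gene with the largest change of those tested had no Glis3 peak within 100 kb. It covers chr5:89457849-89458148 on the minus strand (RefSeq, GRCm38.p6), with no capitals because neither TATAAA, TGGGGGGT nor GGGGGG matched on either strand.
Gc: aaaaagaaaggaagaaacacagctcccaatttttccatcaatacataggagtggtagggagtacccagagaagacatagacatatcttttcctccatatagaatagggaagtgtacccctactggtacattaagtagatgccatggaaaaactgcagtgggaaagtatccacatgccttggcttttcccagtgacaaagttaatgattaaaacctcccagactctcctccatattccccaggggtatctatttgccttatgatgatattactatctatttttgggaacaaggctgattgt
TGGGGGGT is the core of a G-rich element described for Glis proteins, and every copy of it also counts as a copy of GGGGGG. It was found in 1.53% of all promoter windows, and GGGGGG in 17.9%. A match is a description of the letters only.

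Dpp4 encodes a surface peptidase that cuts GLP-1 and other peptides after their second residue, and lies near Gcg on chromosome 2 (62330073 to 62412231, minus strand). Its levels were 74.9, 66.0, 68.6 and 62.3 CPM in controls, against 121, 74.6 and 88.9 CPM in labelled knockouts. Labelled knockout 1 was high and labelled knockout 2 just below control 1, so the groups overlapped. Dpp4 rose by 0.48 (log2, SE 0.15, edgeR adjusted p = 0.0485). Without labelled knockout 1 the log2 value was 0.26 (edgeR adjusted p = 0.231), and the call was also lost without control 2, 3 or 4 or labelled knockout 3, with RLE factors (edgeR adjusted p = 0.0503), without the 10 most abundant genes in the scaling (0.0519) and with limma-voom (adjusted p = 0.0552). Over all alternatives its adjusted p ran from 0.0127 to 0.231.

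Dpp4 is also made by duct, endothelial and T cells. Summed duct markers stood at 223 to 271 CPM in controls, against 730 to 930 CPM in labelled knockouts, without overlap, led by Spp1, the 1 of 5 tested duct markers that was called (log2 4.29 ± 0.27 SE, adjusted p = 1.79e-06 by edgeR). Endothelial markers summed to 504 to 571 and 553 to 707 CPM, and T cell markers to 1.26 to 3.83 and 2.72 to 3.94 CPM. The part of duct or other cells in the Dpp4 value was not tested.

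Sv2b, a synaptic vesicle glycoprotein of regulated secretion, lies on chromosome 7 (75114895 to 75309262, minus strand). It was at 15.2, 13.5, 9.68 and 13.2 CPM in controls, against 33.4, 25.4 and 16.3 CPM in labelled knockouts. All 3 labelled knockouts lay above the controls, labelled knockout 3 by about 1 CPM. Sv2b rose 1.93-fold (log2 0.95 ± 0.23 SE, adjusted p = 0.0119 by edgeR) and did not pass when labelled knockout 1 was left out (log2 0.69, adjusted p = 0.0667 by edgeR, with a range from 0.00142 to 0.0667 over the alternatives). Its paralog Sv2c rose from 1.14 ± 0.607 to 11.7 ± 0.321 CPM (log2 3.40 ± 0.37 SE, adjusted p = 2.76e-05 by edgeR), and Sv2a stood at 99.4 ± 6.72 and 92.1 ± 7.56 CPM (log2 −0.11 ± 0.11 SE, adjusted p = 0.584 by edgeR). Markers of neurons and Schwann cells summed to 171 to 213 CPM in controls, against 260 to 292 CPM in labelled knockouts, and their part in the Sv2b value was not tested.

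Loxl4, a lysyl oxidase-like enzyme that cross-links collagen, was barely detected. It had 6, 11, 0 and 6 counts in controls 1 to 4, against 0, 0 and 2 in labelled knockouts 1 to 3. A count of 0 allows up to 0.164 CPM in control 3, and 0.248 and 0.144 CPM in labelled knockouts 1 and 2 (3 counts). Pooled counts over total counts gave a ratio of labelled knockout over control of 0.188. Its 95% exact counting interval, from 0.0214 to 0.759, ignores variation between mice. Loxl4 (chromosome 19, 42592279 to 42612806, minus strand) was not tested across libraries in the main fit. In the fit with no filter on low counts it was tested and was not called. Its promoter (chr19:42612757-42613056, minus strand, RefSeq, GRCm38.p6) is printed because it was the only one of 10 windows of these genes with TGGGGGGT, here on the strand not printed (capitals).
Loxl4: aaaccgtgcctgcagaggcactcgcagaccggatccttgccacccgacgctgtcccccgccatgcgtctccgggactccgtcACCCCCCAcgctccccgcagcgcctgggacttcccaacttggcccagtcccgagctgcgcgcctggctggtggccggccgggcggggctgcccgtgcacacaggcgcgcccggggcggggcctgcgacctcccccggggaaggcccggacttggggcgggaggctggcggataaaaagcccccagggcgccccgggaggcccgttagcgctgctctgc
GGGGGG was found in 4 of those 10 windows, of Dpp4, Loxl4, Pou3f4 and Sv2b. The table of promoter windows used here was matched for 7 of the 8 genes, all but Irx1.

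The genes were also set against Gcg within each library, a ratio in which library scaling cancels. Dividing by the same Gcg counts moves the log2 differences of all 6 genes by the same amount, so their order is fixed by construction and the ratios add only how each library stands. For Gc there were 219, 229, 165 and 126 counts per 100000 Gcg counts in controls 1 to 4, against 1127, 1018 and 876 in labelled knockouts 1 to 3. This was 5.58-fold higher (log2 2.48; exact permutation test, 2-sided, p = 0.0571, the smallest that 4 against 3 libraries allow, or 0.205 adjusted over 6 genes). Gc was the 1 gene of 6 whose ratios did not overlap between groups. The share of all genes without overlap in such a ratio was not computed. Overlap here also depends on Gcg, which ran from 35660 to 73316 CPM in controls. Sv2b and Irx2 did not overlap in CPM but did as ratios. Dpp4 over Gcg was 166, 185, 130 and 85.0 in controls, against 304, 183 and 202 in labelled knockouts (log2 0.72, exact permutation p = 0.114), and Sv2b over Gcg was 33.6, 37.9, 18.3 and 17.9 against 83.6, 62.5 and 37.1 (log2 1.19, exact permutation p = 0.114). Controls 3 and 4 were low in both ratios.

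Irx2 over Gcg was 81.3, 80.8, 76.2 and 57.8 counts per 100000 in controls, against 57.6, 63.7 and 63.2 in labelled knockouts. These overlapped, with a log2 difference of −0.26 (exact permutation p = 0.171). The log2 difference was −0.52 for Irx1 (exact permutation p = 0.171) and −0.90 for Pou3f4 (exact permutation p = 0.229). None of the 6 ratios could pass 0.05 in this design.

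**Figure D2:**
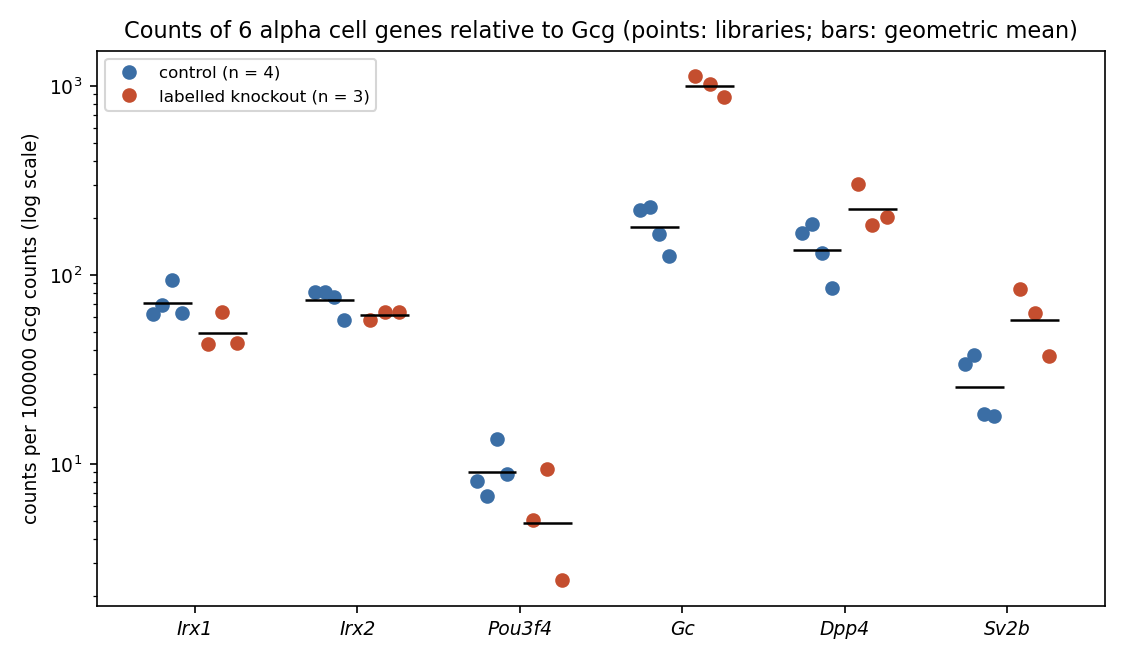
Counts of 6 genes per 100000 Gcg counts in the same library, on a log axis; points are libraries and bars geometric means (4 controls, 3 labelled knockouts). Only the ratios of Gc are apart, at 126 to 229 in controls, against 876 to 1127 in labelled knockouts.

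Other alpha cell genes also moved in both directions. Of 10 further genes on a chosen list 9 were tested, with 3 higher, 1 lower and 5 not passing (median log2 0.12, against 0.0065 over all tested genes). The shares over all tested genes were 8.73% higher and 5.25% lower. The amino acid transporter gene Slc38a5 rose from 38.0 ± 9.63 to 209 ± 24.5 CPM (log2 2.46, SE 0.17). The gene of the thyroxine and retinol carrier transthyretin, Ttr, rose from 1765 ± 401 to 5527 ± 240 CPM (log2 1.65, SE 0.16), and Tmem27, which beta cells also make, from 679 ± 52.6 to 1252 ± 292 CPM (log2 0.88, SE 0.15). The arginine transporter gene Slc7a2 fell by 0.59 on the log2 scale (SE 0.12, edgeR adjusted p = 0.00595, or 0.054 with library size alone).

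**Figure D3:**
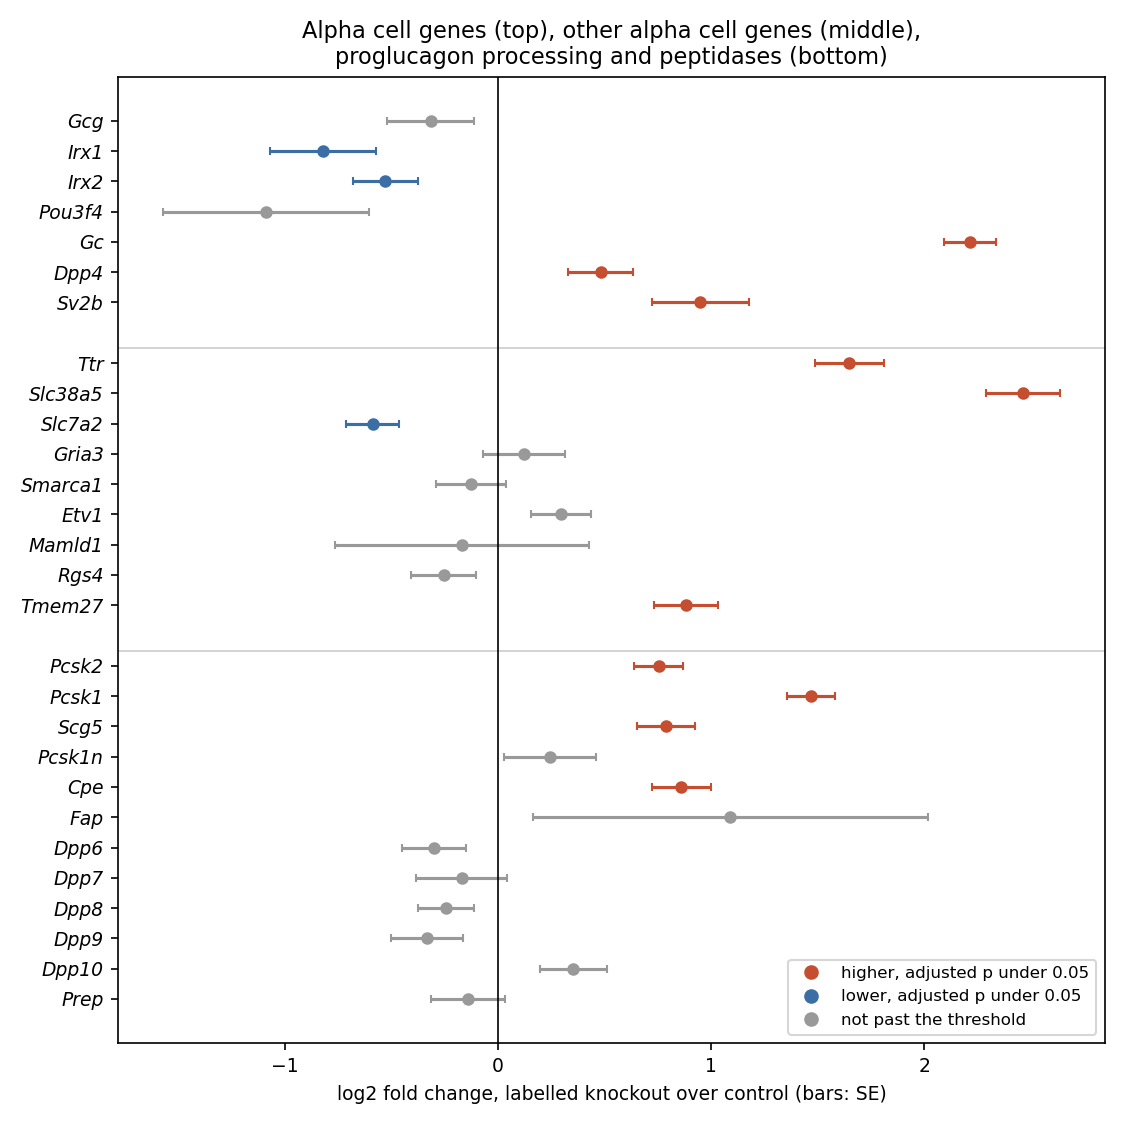
Log2 fold changes (labelled knockout over control, bars ± SE, edgeR) of 7 tested alpha cell genes, 9 other alpha cell genes and 12 genes of proglucagon processing and related peptidases. Red marks genes called higher and blue genes called lower at an adjusted p under 0.05; Gc (2.21) and Slc38a5 (2.46) lie furthest to the right.

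Among genes that process proglucagon, the convertase and chaperone genes Pcsk2, Pcsk1 and Scg5 and the carboxypeptidase gene Cpe rose. Of 13 genes for processing and peptidases 12 were tested, with 4 higher, 0 lower and 8 not passing (median log2 0.30). Of all tested genes 8.73% were called higher. Pcsk2, the convertase that releases glucagon, rose from 3452 ± 201 to 5823 ± 147 CPM (log2 0.75 ± 0.12 SE, adjusted p = 0.000601 by edgeR). Scg5 (7B2), the chaperone of that convertase, rose by 0.79 (SE 0.14), Cpe by 0.86 (SE 0.14) and Pcsk1 by 1.47 (SE 0.11). The groups did not overlap for 5 of the 12 tested genes, these 4 and Dpp10. Over all tested genes 26.6% did not overlap, 14.0% with labelled knockouts higher. Beta and delta cells express Pcsk2, Pcsk1, Scg5 and Cpe as well. Of the relatives of Dpp4, Fap was at 0.618 ± 0.31 CPM in controls, against 1.29 ± 1.56 CPM in labelled knockouts (edgeR adjusted p = 0.489), and Dpp6, Dpp7, Dpp8, Dpp9 and Dpp10 had log2 values from −0.33 to 0.35 without passing. At an unadjusted p under 0.05 0 genes of this list were lower, and neither DESeq2 nor limma-voom called any lower. Over all tested genes 5.25% were called lower in the main fit, 7.5% by DESeq2 and 5.47% by limma-voom. For 12 genes a count of 0 is near those shares. The share of all genes at the unadjusted threshold was not computed.

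Receptors and channels that set glucagon secretion showed 2 of 17 tested genes higher and 3 lower (12 not passing, median log2 −0.38). Of all tested genes 8.73% were called higher and 5.25% lower, with a median log2 of 0.0065. The glucagon receptor gene Gcgr fell from 26.9 ± 3.47 to 16.1 ± 2.88 CPM (log2 −0.74 ± 0.17 SE, adjusted p = 0.00879 by edgeR, or 0.0728 with library size alone) and the GIP receptor gene Gipr from 69.9 ± 12.6 to 32.3 ± 2.27 CPM (log2 −1.12, SE 0.15). Kcnj11 fell by 0.38 (SE 0.12), whereas Abcc8, its partner in the ATP-sensitive potassium channel, rose by 0.55 (SE 0.13) and Cacna1a by 0.57 (SE 0.17). The calls of Kcnj11 (edgeR adjusted p = 0.0492, with a range from 0.0102 to 0.423) and Cacna1a (0.0398, with a range from 0.00397 to 0.169) were each lost in 6 of the 7 fits that left out 1 library, that of Kcnj11 not without labelled knockout 2 and that of Cacna1a not without control 3. That of Abcc8 was lost without labelled knockout 1 (edgeR adjusted p = 0.0704). Beta cells carry most of these proteins too.

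Among 12 tested transcription factor genes of the glucagon promoter and endocrine lineage 2 rose, 1 fell and 9 did not pass (median log2 −0.05). The main fit called 8.73% of all tested genes higher and 5.25% lower. Isl1 rose from 146 ± 10.7 to 242 ± 7.13 CPM (log2 0.73 ± 0.11 SE, adjusted p = 0.000648 by edgeR) and Rfx6 by 0.45 (SE 0.12, edgeR adjusted p = 0.0243). Neurod1 fell by 0.58 (SE 0.16, edgeR adjusted p = 0.0264). Pax6, a direct activator of Gcg, stood at 283 ± 18.2 CPM in controls, against 313 ± 29.9 CPM in labelled knockouts (log2 0.14 ± 0.12 SE, adjusted p = 0.489 by edgeR). Rfx6 was not called without control 1 or 4 or labelled knockout 1 or 3, nor Neurod1 without control 3 or 4 or labelled knockout 1 or 3 or with library size alone (adjusted p up to 0.0847 and 0.111).

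Of 21 paralogs of the set, 11 were tested, 4 rose, 0 fell and 7 did not pass (median log2 0.89). Besides Sv2c these were hormone genes of the glucagon family: secretin (Sct) rose from 0.526 ± 0.223 to 6.5 ± 1.38 CPM (log2 3.65, SE 0.41), Gip from 0.0494 ± 0.0659 to 1.8 ± 1.17 CPM (log2 4.85, SE 0.96) and Vip from 40.5 ± 11.2 to 88.1 ± 38.5 CPM (log2 1.13 ± 0.30 SE, adjusted p = 0.042 by edgeR). Gip had 0 to 4 counts in controls and Sct 8 to 25. Both passed the filter on low counts only through the labelled knockouts, where they were high. The filter thus favoured rises in this count. With no filter 16 paralogs were tested, of which 3 were higher and 0 lower. At an unadjusted p under 0.05 0 paralogs were lower, and 0 by DESeq2 or limma-voom at the adjusted threshold. For 11 genes this is near the shares of all tested genes called lower (5.25% in the main fit, 7.5% by DESeq2, 5.47% by limma-voom). The share of all tested genes called higher in the main fit was 8.73%. Vip was the least stable of the 4 called paralogs (edgeR adjusted p from 0.000223 to 0.178), and its highest library was labelled knockout 2. Of the Iroquois genes outside the set, Irx4, Irx5 and Irx6 had no count in any library and Irx3 stood at 1.1 ± 0.693 and 2.06 ± 0.32 CPM (edgeR adjusted p = 0.373).

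Glis3 peaks were sparse around these genes. Of the 8 genes 3 (Irx2, Dpp4 and Sv2b) had a peak midpoint within 50 kb of the gene span, or 3 of the 7 tested, whereas 93.7% of all tested genes had one. Within 10 kb the same 3 genes had a peak, against 85.8% of tested genes, and within 100 kb Gcg and Loxl4 joined them, against 96.4%. Irx1, Pou3f4 and Gc had none within 100 kb. Of the other alpha cell genes 7 of 9 tested had a peak within 50 kb. Gria3 had none within 100 kb, and the nearest peak of Slc38a5 lay 65055 bp upstream. With 1 binding sample and no peak scores, the absence of a peak says only that none was deposited there.

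The peaks that were present lay at different places. The peak near Dpp4 (chr2:62420018-62420217) had its midpoint 7886 bp upstream of the Dpp4 start. The same peak was the nearest to Gcg, at 54413 bp beyond the Gcg 3′ end and so just outside the 50 kb window. Sv2b had peaks with midpoints 340 bp and 12955 bp inside its span from the start (chr7:75308823-75309022 and chr7:75296208-75296407) and another 20098 bp past its 3′ end, and 1 more, 52018 bp upstream, was just outside the window. Exon annotation was not used here, so whether these lie in exons or introns was not determined. Of the genes with a peak within 50 kb 2 rose and 1 fell. Of those without, Gc rose, Irx1 fell, Gcg and Pou3f4 did not pass and Loxl4 was not tested in the main fit.

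**Figure D4:**
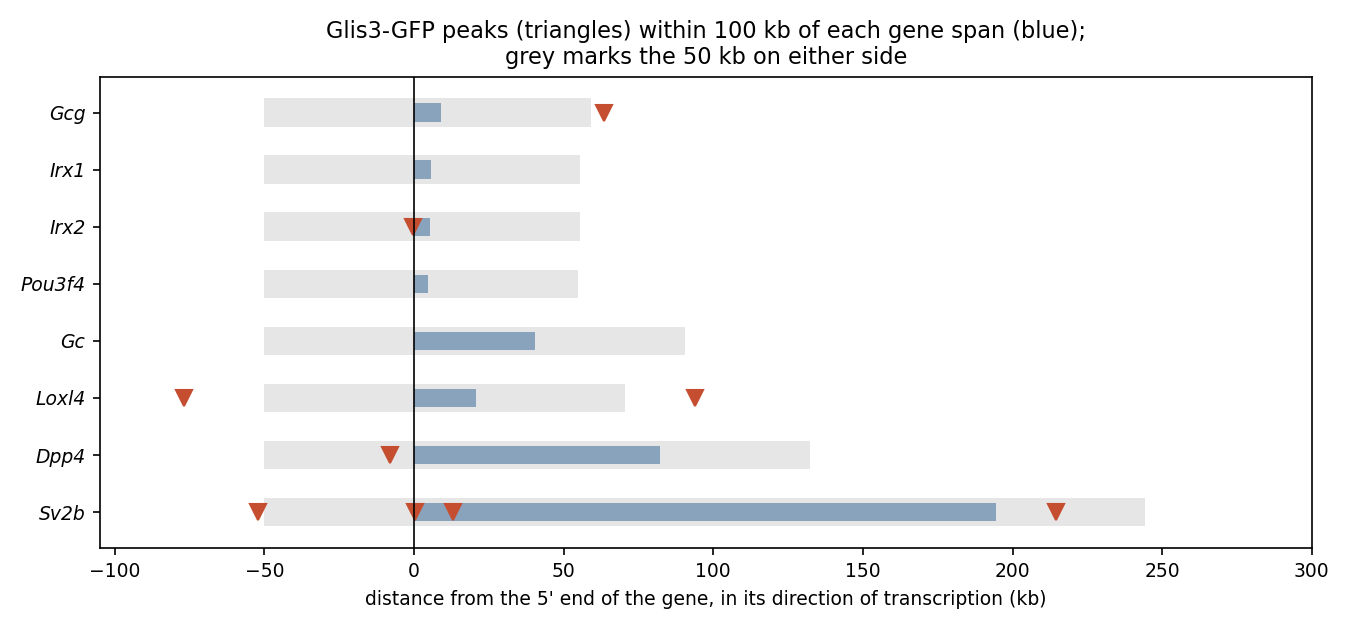
Glis3-GFP peak midpoints (triangles) within 100 kb of the span of each of the 8 genes, by distance from the 5′ end in kb along the direction of transcription. Blue bars are gene spans and grey the 50 kb on either side; the peak upstream of Dpp4 is also the one downstream of Gcg, and Irx1, Pou3f4 and Gc have none.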

How the data were processed

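RNA of hand-picked islets from 7 mice and 1 chromatin immunoprecipitation were used. The labels give separate mice for the RNA libraries and do not say how many mice the binding sample held. The authors deposited counts per gene, whole numbers without normalisation, with symbols and coordinates per the file headers. The submitters' processing notes name the build mm10, STAR 2.5, featureCounts 1.5.0-p1, Bowtie 1.2 and HOMER 4.9.1, without roles. The counting strand, annotation and peak thresholds are not given in the sources used here. Each peak was an interval of 200 bp with no score, deposited by the authors from 1 sample. The input library was not analysed here.

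Genes passing filterByExpr (by group) were scaled with TMM factors and tested in edgeR 4.0.16 under R 4.3.3, with the robust quasi-likelihood F test. P-values were adjusted by Benjamini-Hochberg over all 14529 tested genes, with a threshold of 0.05. The SE is the absolute log2 fold change over the square root of F. The fit was tested on simulated counts. Groups and replicate numbers came from the labels. Levels are TMM-normalised CPM, mean ± SD. The libraries held 12099365 to 48054551 counts, and intervals cover counting error only, since no molecular identifiers are named in the labels.

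Peak midpoints were set against gene spans of the count table. Promoter windows came from RefSeq (GRCm38.p6). Alternatives comprised library size alone, RLE factors, no filter, a filter of 1 CPM in 3 libraries, DESeq2 1.42.0, limma-voom (limma 3.58.1), a replicate block, leaving out each library, scaling without the 10 most abundant genes, and other peak windows. The replicate numbers were not taken to pair the mice. The genes, the lists and the tests were chosen with earlier results of these data known. The 8 genes are all named, and list members are named with values where they passed the threshold. Other list members were named as examples after their values were seen. Some list genes, and a ratio planned with them, are not reported here.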

Additional observations from a re-analysis of the deposited data

Results flagged for a closer look

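Etv1, a transcription factor gene on the list of other alpha cell genes, had 1 control far from the others. Its levels in controls 1, 2 and 4 were 29.8, 30.2 and 30.2 CPM, and that of control 3 was 39.9 CPM, a gap of 0.957 of the range of the group, beyond the 95% limit of Dixon for 4 samples. Labelled knockouts stood at 37.0 to 44.7 CPM. Chance flags about 1 in 20 groups, and 23 groups of levels and ratios were examined.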

How the results depend on the processing

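Gc rose under all 15 alternatives, and Gcg and Pou3f4 kept a negative sign in all. With library size alone the median log2 fold change of all genes moved up by 0.17, and calls shifted from 1268 higher and 763 lower to 1854 and 324; 0 of the 8 genes were then lower, as were 0 other alpha cell genes and 0 transcription factor genes, while 4 receptor and channel genes were higher and 1 lower. The 2 falls among the 8 genes became 1 with no filter on low counts and 0 with limma-voom. In the fit with the replicate number as a block 0 of the 8 genes were lower and 4 receptor and channel genes higher. Same-numbered libraries correlated by 0.126, 0.08 and 0.092 in their deviations, and other pairs of control and labelled knockout by −0.139 to 0.124. Labelled knockouts 1 and 2 correlated best with their own number, and labelled knockout 3 with control 4. The labels do not say that the numbers pair the mice, so they were not taken to do so, and pairing was not tested. DESeq2 called 5 receptor and channel genes and 2 transcription factor genes lower. Leaving out 1 library at a time gave 1 to 3 of the 8 genes higher and 0 to 2 lower. It gave 0 to 1 processing genes lower, 1 to 2 receptor and channel genes higher, and 1 to 2 transcription factor genes higher and 0 to 3 lower. With Ttr counts in place of Gcg, an alternative chosen after seeing the data, the log2 ratios were −2.46 for Irx1, −2.19 for Irx2, −2.84 for Pou3f4, 0.54 for Gc, −1.22 for Dpp4 and −0.75 for Sv2b, the last 2 reversed in sign; this follows from the change of denominator, since the rise of Ttr moves all 6 ratios down by the same amount. With a 100 kb window 5 genes had a peak in place of 3. Precision for Loxl4 and Pou3f4 was limited by their low counts.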

Other observations

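Gca, which encodes the calcium-binding protein grancalcin, starts within 200 kb of the start of Gcg. It rose from 13.6 to 15.9 CPM in controls to 18.5 to 23.1 CPM in labelled knockouts (log2 0.52 ± 0.15 SE, adjusted p = 0.036 by edgeR) without overlap. Its call was lost with the replicate block, with no filter, and without any 1 control or labelled knockout 2 or 3 (adjusted p from 0.0148 to 0.115). Ifih1, a sensor of viral RNA, stood at 14.6 ± 4.48 and 12.9 ± 4.57 CPM (edgeR adjusted p = 0.703). Dpp4, described above, was the other called gene in this window.

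The levels of some alpha cell genes varied together over the 7 libraries once group means were taken off. Taken as deviations of log2(CPM + 0.5) from the group means over the 7 libraries, Irx2 (Pearson r = 0.875), Irx1 (0.735) and Pou3f4 (0.56) went with Gcg, while Gc (0.254), Dpp4 (−0.209) and Sv2b (−0.237) did so less or not. Ttr (0.929) and Slc38a5 (0.872), which rose between groups, also had high values over the libraries pooled. Both ranked the 4 controls as Gcg did. Among the 3 labelled knockouts they did not follow it: Ttr, Slc38a5 and Pou3f4 were lowest in labelled knockout 3, where Gcg was highest. The rest of the tested other alpha cell genes had lower values, with Rgs4 at 0.656. Tmem27 (0.218), Slc7a2 (0.109), Smarca1 (0.0996), Etv1 (0.0983), Gria3 (−0.218) and Mamld1 (−0.283) were near 0 or negative. Among 8776 other genes with a mean of at least 10 CPM, the closest to Gcg were Hsbp1l1 (0.989), Fmn2 (0.986), H2afj (0.986) and Rpl17 (0.984). These values describe 7 libraries that share their scaling, and the spread of r over all genes is not given here.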
